A study of Homo sapiens with 6 samples.

Results

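The transcripts of 36 genes of G2 phase and mitosis were followed in BEAS-2B, a human line of bronchial epithelium that was immortalised with an adenovirus/SV40 hybrid virus. The genes were selected by symbol from a list of 36, and each matched 1 of the 35019 gene identifiers in the expression table. Of these identifiers 14188 reached a mean normalised count of at least 10 and were tested, all 36 mitotic genes among them. The study concerned indirubin (ID), a bis-indole that inhibits several protein kinases, in cells exposed to RSL3, a covalent GPX4 inhibitor that starts ferroptosis, the iron-dependent form of cell death. Both groups had received RSL3 at 2 µM for 24 h. The 3 RSL3 libraries had no further agent named, and the 3 RSL3+ID libraries came from cells pretreated with indirubin for 2 h. The protocols state indirubin only as 7.5 to 30 µM, and the dose behind these libraries is not stated. Untreated cells and cells given indirubin alone were not analysed here, so whether a difference lies in the response to RSL3 or is an effect of indirubin itself cannot be told apart. The labels do not say that the libraries were separate cultures, so each p-value measures spread among these libraries only, and that spread may be technical.

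Sequencing depth was similar, with 15206183 to 18506637 reads on genes per library, so that 3 reads corresponded to 0.162 to 0.197 CPM. Of 10 markers of bronchial epithelium, the keratins KRT7, KRT8 and KRT18 were present at no less than 4719 normalised counts in any library. KRT19 stood at 371 to 534 and MUC1 at 60.9 to 119. CDH1, which encodes E-cadherin, stood at 39.1 in RSL3+ID library 1 and at 1.79 to 7.23 in the other libraries. EPCAM did not exceed 64.5 normalised counts, whereas the airway markers KRT5, TP63 and SCGB1A1 stayed under 10 everywhere. Of 4 leukocyte markers CD3E was at 0, PTPRC at no more than 2.07 and CD68 at no more than 6.94 normalised counts, but CD14 stood at 413 to 835. Of 5 fibroblast markers COL1A1 stood at 699 to 1350 and PDGFRB at 282 to 433 normalised counts, and DCN stayed under 10. COL1A2 stood at 297 in RSL3+ID library 1 and at 58.9 to 111 in the other libraries, and LUM did not exceed 22.7. Of 3 endothelial markers none exceeded 46.5. The summed fibroblast markers ran from 1539 to 1901 in RSL3 and from 1057 to 1754 in RSL3+ID. The summed markers of bronchial epithelium ran from 42905 to 47518.5 in RSL3 and from 33191 to 43338 in RSL3+ID. The part of either sum in the results below was not tested.

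Entry into mitosis is driven by CDK1, a kinase that becomes active when it binds a B-type or A-type cyclin and when a CDC25 phosphatase removes the inhibitory phosphates that WEE1 and PKMYT1 place on it. Active CDK1, with the Polo and Aurora kinases, condenses chromosomes and builds the spindle, while the checkpoint proteins on unattached kinetochores hold back the anaphase-promoting complex. That ubiquitin ligase then destroys securin and the cyclins, which lets the sister chromatids part and the cell divide. Most of these genes are transcribed periodically and peak in G2 and mitosis. The MuvB core, as part of the DREAM repressor or with B-MYB and FOXM1, binds a short element called the cell cycle genes homology region (CHR), which often lies downstream of CCAAT boxes bound by NF-Y. In RNA from whole cultures a change in the share of cells in G2 and mitosis and a change in RNA per such cell cannot be told apart.

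The promoter sequences of 7 of the genes are shown because they carry these elements and belong to genes that stood at both ends of the comparison or, as with CCNB2 and PLK1, between them. Each is the 120 bases before a RefSeq start on GRCh38.p14, read 5′ to 3′ on the strand of the gene, with the CCAAT box (ATTGG when it lies on the other strand) and the CHR form TTTGAA in capitals. CDK1 lies at chr10:60778358-60778477 on the plus strand, CDC25C at chr5:138331805-138331924 on the minus strand and PTTG1 at chr5:160421735-160421854 on the plus strand. CCNB2 lies at chr15:59105026-59105145, PLK1 at chr16:23678769-23678888 and BUB1B at chr15:40160949-40161068, all on the plus strand, and PRC1 at chr15:90994536-90994655 on the minus strand. CDK1, CDC25C and PTTG1 have several starts in RefSeq, and the stretch shown is the one with the most of these letters in capitals.
CDK1: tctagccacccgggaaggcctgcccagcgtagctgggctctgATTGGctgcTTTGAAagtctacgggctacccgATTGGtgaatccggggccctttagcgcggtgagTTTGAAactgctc
CDC25C: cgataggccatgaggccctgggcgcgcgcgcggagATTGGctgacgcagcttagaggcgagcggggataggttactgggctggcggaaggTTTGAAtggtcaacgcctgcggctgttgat
PTTG1: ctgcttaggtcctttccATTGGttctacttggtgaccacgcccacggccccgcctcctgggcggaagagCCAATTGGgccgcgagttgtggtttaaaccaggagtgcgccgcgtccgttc
CCNB2: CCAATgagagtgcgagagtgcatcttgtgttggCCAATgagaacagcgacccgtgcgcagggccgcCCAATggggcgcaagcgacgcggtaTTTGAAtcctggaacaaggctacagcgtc
PLK1: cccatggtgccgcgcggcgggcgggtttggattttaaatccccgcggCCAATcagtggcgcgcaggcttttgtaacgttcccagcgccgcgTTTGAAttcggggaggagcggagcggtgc
BUB1B: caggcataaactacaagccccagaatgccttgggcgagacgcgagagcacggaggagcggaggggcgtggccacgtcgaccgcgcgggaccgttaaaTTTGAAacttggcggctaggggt
PRC1: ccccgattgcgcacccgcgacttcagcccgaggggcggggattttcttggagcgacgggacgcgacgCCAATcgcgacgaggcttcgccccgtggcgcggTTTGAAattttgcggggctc

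RefSeq windows, from 250 bases before to 50 after a start, were at hand for 30 of the 36 genes, in 36 windows. They were missing for FOXM1, TTK, BIRC5, UBE2C, TPX2 and AURKA. On both strands, CCAAT was found in 27 of these 36 windows (75%), against 34.6% of all 35116 windows of the same length. The CHR form TTTGAA was found in 63.9% of these windows, against 15.2% of all windows. The rarer form TTCGAA was found in 5.56%, against 1.45%. Either form was found in 24 windows (66.7%) of 22 genes, against 16.4% of all windows. A CCAAT box and a CHR form stood in the same window in 55.6% of the mitotic gene windows and 6.38% of all windows. The median GC content of the windows was 61.3% for these genes and 58.7% for all. In the CCNB2 stretch 3 CCAAT letters precede 1 TTTGAA, PLK1 and PRC1 have 1 of each, and BUB1B has TTTGAA without CCAAT. PTTG1 has CCAAT letters, including overlapping ones on both strands, but neither TTTGAA nor TTCGAA in its windows. CCNB1, CCNA2, AURKB and KIF20A likewise have CCAAT letters and neither of these forms. No other letters were searched for as a CHR, so these windows cannot be said to lack one. A match is a description of letters and not a measured site.

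Between the treatments the 36 genes had estimates of both signs, and a shift of the group as a whole was not tested. CDK1 and its activating phosphatase CDC25C rose in RSL3+ID, by 1.68-fold and 1.62-fold, and no gene of the list fell at an adjusted p of 0.05 (limma, Benjamini-Hochberg adjustment over the 14188 genes). Over all genes tested 1.91% were called, 1.08% as higher and 0.832% as lower, and 2 of 36 have to be read against that background. In the 36 genes 16 estimates were positive and 20 negative, with a median log2 fold change of −0.03 beside −0.02 over all genes. The log2 fold changes ran from −0.76 for BUB1B to 0.74 for CDK1. An unadjusted p under 0.05 was reached by 10 of the 36 genes, 6 higher and 4 lower, and by 19.3% of all genes tested. The groups did not overlap for 7 genes, where the share over all genes was 25.4%. CDK1, CDC25C, PTTG1 and AURKB were higher in every RSL3+ID library, where the share over all genes was 12.8%, and BUB1B, BUB1 and PRC1 were lower in every one, where it was 12.6%.

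**Figure D1:**
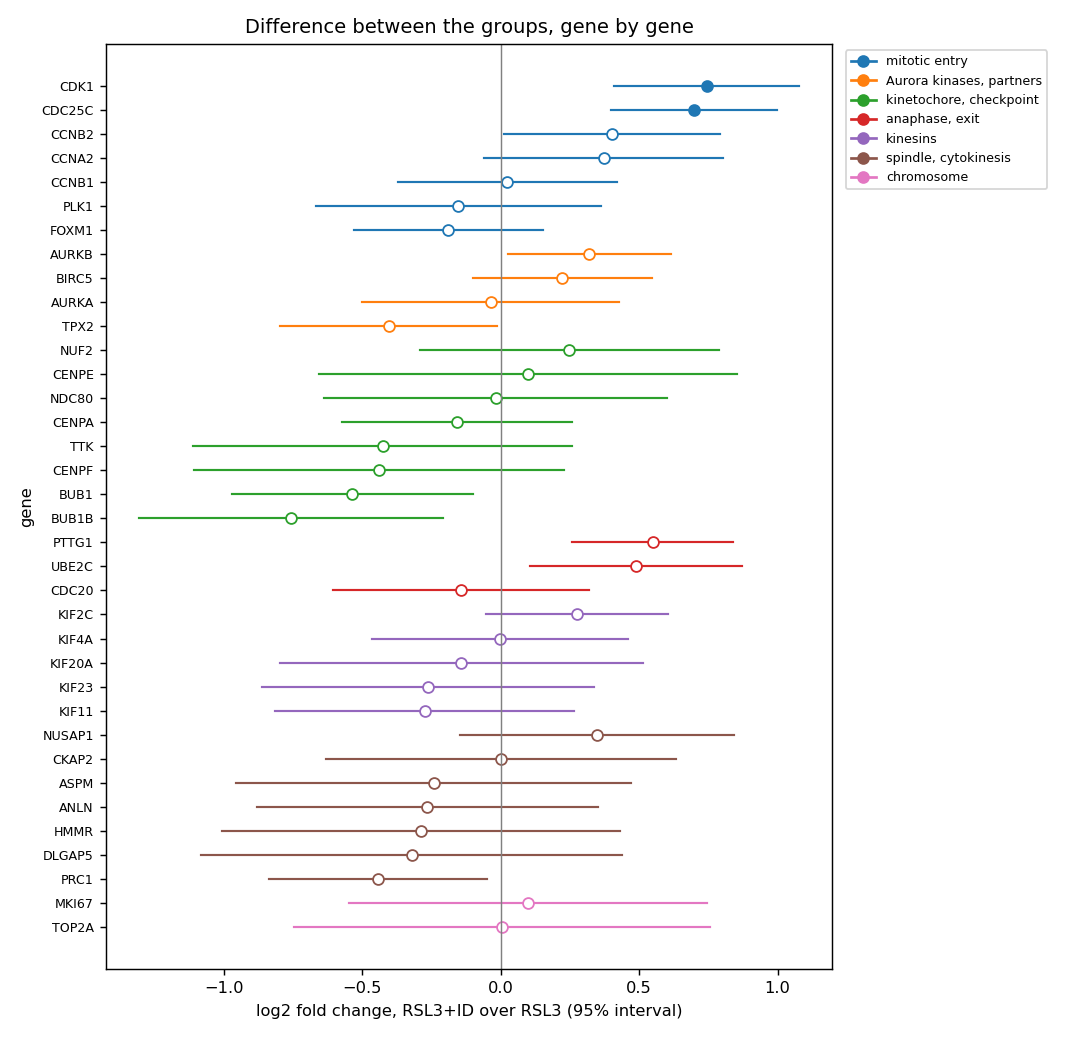
The log2 fold change of each of the 36 genes, RSL3+ID over RSL3, is plotted on the horizontal axis with its 95% interval from limma (3 libraries per group), coloured by role and with filled points for an adjusted p under 0.05. CDK1 and CDC25C at the top have the filled points, and the checkpoint kinase genes BUB1B and BUB1 lie farthest to the left.

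Among the 7 genes of mitotic entry CDK1 and its phosphatase gene CDC25C were higher in RSL3+ID, and the other 5 did not pass the test. CDK1 (ENSG00000170312; chromosome 10, 60778331 to 60794852 on GRCh38) had normalised counts of 1605, 1975 and 1633 in RSL3 libraries 1 to 3 and of 2586, 2783 and 3382 in RSL3+ID libraries 1 to 3. All 3 RSL3+ID values lay above all 3 RSL3 values, with RSL3+ID library 3 the highest. The means were 1738 ± 206 and 2917 ± 415 (SD, n = 3 each), a log2 fold change of 0.74 with a standard error of 0.15 and a limma adjusted p of 0.0401. CDC25C (ENSG00000158402; chromosome 5, 138285265 to 138338355), the phosphatase that removes inhibitory phosphates from CDK1, had 1425, 1527 and 1520 normalised counts in RSL3 and 2596, 2170 and 2512 in RSL3+ID. The RSL3 libraries were within 1.07-fold of each other, and again no values overlapped. Its means were 1491 ± 56.7 and 2426 ± 226 (SD, n = 3 each), a log2 fold change of 0.70 with a standard error of 0.14 and a limma adjusted p of 0.0372.

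Both calls were lost in most sets of 5 libraries. When any of RSL3 libraries 1, 2 and 3 or RSL3+ID libraries 1 and 3 was left out, neither gene passed (adjusted p from 0.0711 to 0.266 for CDK1 and from 0.0824 to 0.262 for CDC25C), although the log2 fold changes stayed between 0.63 and 0.84 and between 0.65 and 0.72. Without RSL3+ID library 2 the adjusted p fell to 0.00202 for CDK1 and 0.00086 for CDC25C. CDC25C shares 293 bp of exon with FAM53C on the opposite strand, and the strand setting of the counting is not given in the sources used here, so reads of the shared stretch could have been given to either gene. FAM53C had a mean normalised count of 7937 and a log2 fold change of 0.15 (adjusted p = 0.691).

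None of the 3 cyclin genes whose products partner CDK1 passed the test, and differences between them were not tested. CCNB2, a B-type cyclin, ranged from 637 to 836 normalised counts in RSL3 and from 770 to 1075 in RSL3+ID (log2 fold change 0.40, adjusted p = 0.246). CCNA2, the cyclin of S and G2 phase, ranged from 1186 to 1455 and from 1253 to 2254 (log2 fold change 0.37, adjusted p = 0.331). In both, RSL3+ID library 2 lay among the RSL3 values and the other RSL3+ID libraries lay above them. CCNB1, the main mitotic cyclin, ranged from 1545 to 1965 in RSL3 and from 1370 to 2174 in RSL3+ID. Its log2 fold change of 0.02 had a 95% interval of −0.37 to 0.42, which leaves room for a change of either sign, and with scaling to total reads the estimate was −0.07. PLK1, the Polo kinase that activates CDC25C, had 667 to 958 and 516 to 981 normalised counts (log2 fold change −0.15, adjusted p = 0.769). FOXM1, the transcription factor of many of these genes, had 1018 to 1268 and 879 to 1089 (−0.19, adjusted p = 0.548). FOXM1 shares 781 bp of exon with ITFG2 on the opposite strand, whose log2 fold change was −0.86 (adjusted p = 0.0686).

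**Figure D2:**
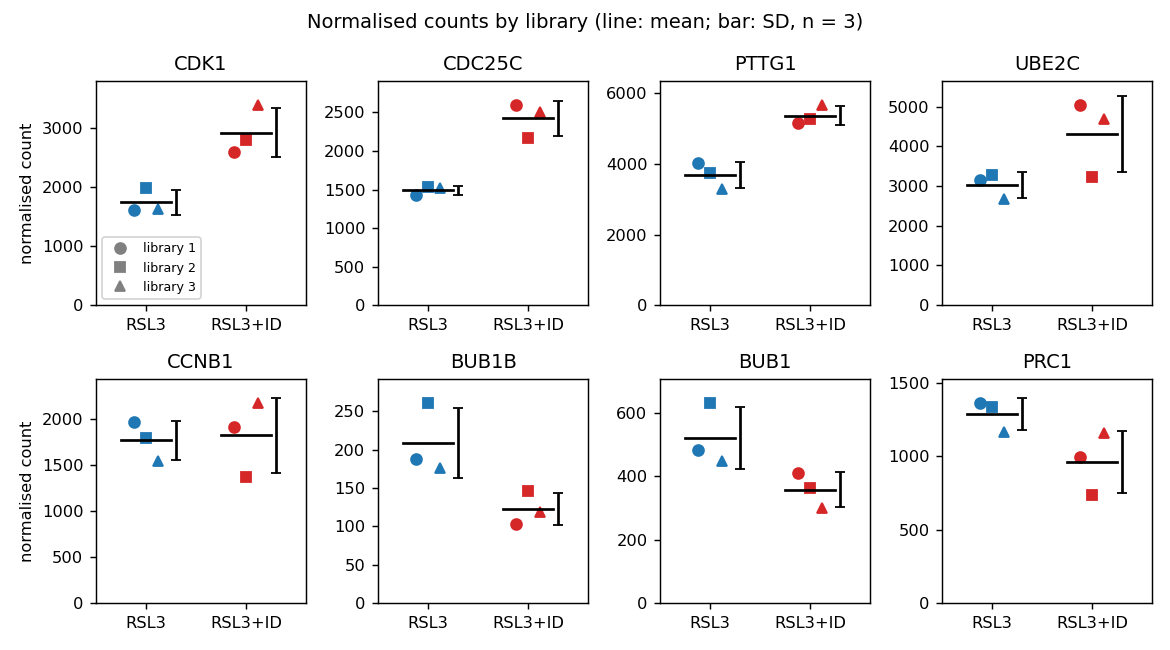
Normalised counts of 8 genes are plotted by library, with a line at the group mean and a bar for the SD (n = 3), on axes that start at 0. For CDK1, CDC25C and PTTG1 every RSL3+ID library is above every RSL3 library, for BUB1B, BUB1 and PRC1 every one is below, and for UBE2C and CCNB1 library 2 of RSL3+ID lies among or below the RSL3 values.

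The genes of anaphase and mitotic exit were the most abundant of the list per unit length. As RPKM, the reads per kb of exon per 1000000 reads on genes, averaged over the 6 libraries, UBE2C stood at 173, PTTG1 at 137 and CDC20 at 70.3, the 3 highest levels among the 36 genes. The lowest were CENPF at 1.17 and CENPE at 0.980, which encode large kinetochore proteins. PTTG1 (ENSG00000164611; chromosome 5, 160421822 to 160428744) encodes securin, the inhibitor of separase. It had 4021, 3734 and 3277 normalised counts in RSL3 and 5149, 5282 and 5663 in RSL3+ID. The lowest RSL3+ID library was above the highest RSL3 library, yet the gene did not pass over all genes. The means were 3677 ± 375 and 5365 ± 267 (SD, n = 3 each), a log2 fold change of 0.55 with a standard error of 0.13 and an adjusted p of 0.0584. With upper-quartile scaling it passed (0.0469), and its copies PTTG2 and PTTG3P had means of 0 and 1.16 normalised counts.

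UBE2C (ENSG00000175063; chromosome 20, 45812576 to 45816957) encodes a ubiquitin-conjugating enzyme of the anaphase-promoting complex. Its normalised counts were 3154, 3276 and 2667 in RSL3 and 5039, 3223 and 4687 in RSL3+ID. Libraries 1 and 3 of RSL3+ID were well above all RSL3 libraries, and library 2 was among them. The log2 fold change was 0.49 with a standard error of 0.18 and an adjusted p of 0.160. Leaving out the low RSL3+ID library 2 raises the estimate by itself, here to 0.69 (limma adjusted p = 0.00202). With any other library left out the adjusted p was 0.296 to 0.371. CDC20, the activator of the complex in anaphase, had 2215 to 2593 normalised counts in RSL3 and 2740, 1465 and 2626 in RSL3+ID (log2 fold change −0.14, adjusted p = 0.758). Here too library 2 was the low one, and the other RSL3+ID values exceeded every RSL3 value.

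Among the Aurora kinases and their partners no gene passed. AURKB, the catalytic subunit of the chromosomal passenger complex, had 1844 to 2228 normalised counts in RSL3 and 2454 to 2606 in RSL3+ID. The groups did not overlap, but the difference was small (log2 fold change 0.32, adjusted p = 0.221). BIRC5, which encodes survivin, another subunit of that complex, had the most counts of the 4 genes, with 3461, 3086 and 3477 in RSL3 and 3236, 4399 and 4149 in RSL3+ID (log2 fold change 0.22, adjusted p = 0.443). RSL3+ID library 1 lay among the RSL3 values and the other RSL3+ID libraries above them. AURKA, the kinase of the spindle poles, ranged from 1518 to 2138 and from 1293 to 2204 (−0.04, adjusted p = 0.944). Its activator TPX2 ranged from 1440 to 1820 and from 1018 to 1591 (−0.40, adjusted p = 0.245).

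The kinetochore and spindle checkpoint genes had a negative median log2 fold change, −0.29 over 8 genes, with 2 positive and 6 negative estimates and none past the threshold. Omitting RSL3 library 2 brought the median to −0.10, and omitting RSL3+ID library 2 brought it to −0.19. BUB1B (ENSG00000156970; chromosome 15, 40161023 to 40221136), which encodes BUBR1, an inhibitor of CDC20 within the mitotic checkpoint complex, had 189, 261 and 177 normalised counts in RSL3 and 103, 146 and 118 in RSL3+ID. All RSL3+ID values lay below all RSL3 values. The means were 209 ± 45.9 and 123 ± 21.4 (SD, n = 3 each), which is 1.69-fold lower in RSL3+ID (log2 fold change −0.76, standard error 0.25, adjusted p = 0.133). The estimate was as large as that of CDK1, at a far lower count and with a 95% interval of −1.30 to −0.21. Without RSL3+ID library 2, the highest of that group, its limma adjusted p was 0.0370. With any other library left out it was 0.18 to 0.383.

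BUB1 (ENSG00000169679; chromosome 2, 110637698 to 110678114), the checkpoint kinase that phosphorylates histone H2A at centromeres, had 483, 632 and 447 normalised counts in RSL3 and 412, 363 and 299 in RSL3+ID. The groups did not overlap, and the log2 fold change was −0.54 with a standard error of 0.20 and an adjusted p of 0.175. CENPF, a large kinetochore protein, had 198, 364 and 203 in RSL3 and 271, 155 and 140 in RSL3+ID. Its groups overlapped, and RSL3 library 2 was the highest (log2 fold change −0.44, adjusted p = 0.464). TTK, which encodes the checkpoint kinase MPS1, ranged from 164 to 419 and from 148 to 218, with RSL3 library 2 again the high one (−0.43, adjusted p = 0.491). Without that library the log2 fold change was −0.16 for CENPF and −0.05 for TTK. CENPA, the histone H3 variant of centromeres, had 698, 607 and 525 in RSL3 and 525, 456 and 669 in RSL3+ID, which overlapped over most of their range (−0.16, adjusted p = 0.696). The NDC80 complex genes NDC80 and NUF2, whose products bind microtubules, had log2 fold changes of −0.02 and 0.25, and CENPE, a kinetochore kinesin, 0.10.

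For each of the 5 kinesins and 7 spindle genes the ratio of the highest to the lowest library in at least 1 group exceeded the fold between the groups. That was common, since the fold exceeded both within-group ratios for only 15.3% of all genes tested. KIF2C, a microtubule depolymerase at centromeres, had 2053, 1891 and 1748 normalised counts in RSL3 and 2508, 1935 and 2484 in RSL3+ID. RSL3+ID library 2 lay among the RSL3 values and the other RSL3+ID libraries above them (log2 fold change 0.28, adjusted p = 0.342). KIF20A, a kinesin of cytokinesis, ranged from 1246 to 1670 in RSL3 but had 1916, 712 and 1766 in RSL3+ID, the widest spread of the list in that group at 2.69-fold. Its log2 fold change of −0.14 turned to 0.31 without RSL3+ID library 2 (adjusted p = 0.195). KIF11, the kinesin that separates spindle poles, and KIF23, a subunit of centralspindlin, were highest in RSL3 library 2 and had log2 fold changes of −0.27 and −0.26. KIF4A, a chromosome-bound kinesin, had −0.00.

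PRC1 (ENSG00000198901; chromosome 15, 90966038 to 90995629), which bundles the microtubules of the central spindle, had 1366, 1338 and 1166 normalised counts in RSL3 and 995, 733 and 1158 in RSL3+ID. The groups did not overlap, but the nearest libraries were almost level, and the log2 fold change of −0.44 had a standard error of 0.18 and an adjusted p of 0.205. PRC1 shares 3181 bp of exon with another annotated protein-coding locus on its own strand, as NUSAP1 does over 1787 bp. BUB1B shares 457 bp with BUB1B-PAK6, also on its own strand. NUSAP1, a microtubule-binding protein of the spindle, had 1679, 1769 and 1345 in RSL3 and 2543, 1321 and 2450 in RSL3+ID. RSL3+ID library 2 was below all RSL3 libraries and the other RSL3+ID libraries above them all (log2 fold change 0.35, adjusted p = 0.433). Leaving out that low library raises the estimate by itself, here to 0.65 (limma adjusted p = 0.00633). With any other library left out the adjusted p was 0.507 to 0.731. The spindle and cytokinesis genes ASPM, HMMR, DLGAP5 and ANLN had log2 fold changes from −0.32 to −0.24, and CKAP2 had 0.00. Each of these 5 was highest in RSL3 library 2.

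The chromosome genes MKI67 and TOP2A did not separate the groups. MKI67, which encodes the proliferation antigen Ki-67 that coats mitotic chromosomes, had 409, 844 and 457 normalised counts in RSL3 and 869, 420 and 530 in RSL3+ID. The highest value of a group was 2.06-fold its lowest in RSL3 and 2.07-fold in RSL3+ID, and the groups overlapped throughout (log2 fold change 0.10, 95% interval −0.55 to 0.74). TOP2A, the topoisomerase that decatenates sister chromatids, ranged from 289 to 877 in RSL3 and from 339 to 642 in RSL3+ID. Its RSL3 range of 3.03-fold was the widest of the list in that group, and its log2 fold change was 0.01 (adjusted p = 0.995).

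**Figure D3:**
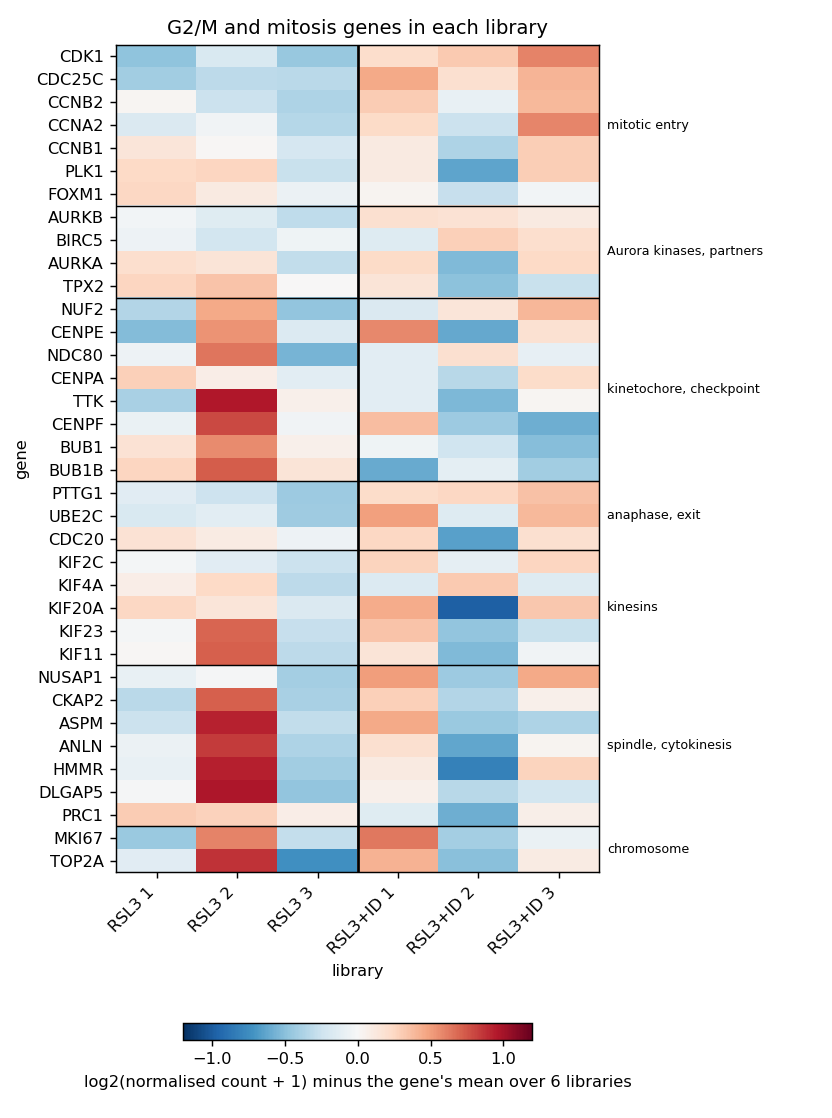
Colours give log2(normalised count + 1) minus the gene's mean over the 6 libraries for each of the 36 genes (rows, by role) and each library (columns), from blue for below to red for above. RSL3 library 2 is red for most spindle and kinetochore genes, NUSAP1 excepted, and RSL3 library 3 and RSL3+ID library 2 are blue for most rows. At the line between the groups CDK1, CDC25C, PTTG1 and AURKB change from blue to red, and BUB1B and BUB1 from red to blue.

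Much of the variation in these genes lay between libraries of one treatment. RSL3 library 2 held the highest value of 15 of the 36 genes (41.7%), against 18.7% of all genes tested, and RSL3 library 3 held none, against 13.2%. RSL3+ID library 2 held the lowest value of 17 genes (47.2%), against 23.8% of all genes, and RSL3 library 3 the lowest of 12 (33.3%), against 13.1%. The mean deviation of the 36 genes from their own means, on the log2 scale, was −0.05, 0.33 and −0.26 in RSL3 libraries 1 to 3 and 0.17, −0.29 and 0.09 in RSL3+ID libraries 1 to 3. The RSL3 group thus spanned the highest library and the next to lowest, and the RSL3+ID group the lowest. Their share of all reads was lowest in RSL3 library 3, at 0.235%, and highest in RSL3 library 2, at 0.309%.

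Without RSL3+ID library 2, 8 of the 36 genes passed, where 9.34% of all genes did, and 7 of them were higher, where the share was 5.23%. They were CDK1, CDC25C, PTTG1, UBE2C, NUSAP1, CCNA2 and CCNB2 as higher and BUB1B as lower. RSL3+ID library 2 held the lowest value of 17 of the 36 genes, and leaving out a low library raises the estimate by itself. For BUB1B it was the highest of its group, and leaving it out lowers the estimate. These counts are therefore not read as an excess over those shares. Without any other library none of the 36 passed, and over all genes no more than 4 did.

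The roles did not share this pattern equally. In RSL3 library 2 the mean deviation was 0.73 for the chromosome genes and 0.66 for the 7 spindle and cytokinesis genes. For the 8 kinetochore genes it was 0.59 and for the 5 kinesins 0.33. The Aurora genes had 0.03, the 7 entry genes −0.06 and the 3 exit genes −0.09. These roles also differed in median exon length, with 4547 bp for the spindle genes, 3338 bp for the entry genes and 2013 bp for the exit genes. The part of length and GC content in these role means was not tested. RSL3 library 2 held the highest value of 6 kinetochore genes, BUB1B, BUB1, CENPF, TTK, NDC80 and NUF2, and of none of the entry genes. RSL3+ID library 3 held the highest value of 5 entry genes, CDK1, CCNA2, CCNB1, CCNB2 and PLK1, with a mean deviation of 0.36 for that role. RSL3+ID library 2 was low in every role, from −0.51 for the spindle genes to −0.14 for the Aurora genes. RSL3 library 3 was low in every role too, from −0.51 for the chromosome genes to −0.13 for the kinetochore genes.

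Within a group the ratio of the highest to the lowest library had a median of 1.41 in RSL3 and 1.56 in RSL3+ID, against 1.325 and 1.48 over all genes tested. The ratio reached 2 in RSL3 for 11 of the 36 genes and for 15.2% of all genes, and in RSL3+ID for 4 of the 36 and for 21.6% of all. The median normalised count was 1080 for the 36 genes and 296 for all genes tested, and genes of like count were not compared. The fold between the groups, in whichever direction, had a median of 1.21 in the 36 genes and over all genes. It exceeded both within-group ratios for 6 of the 36 genes, CDK1, CDC25C, PTTG1, AURKB, BUB1 and BUB1B, and for 15.3% of all genes tested, which is about the same share.

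**Figure D4:**
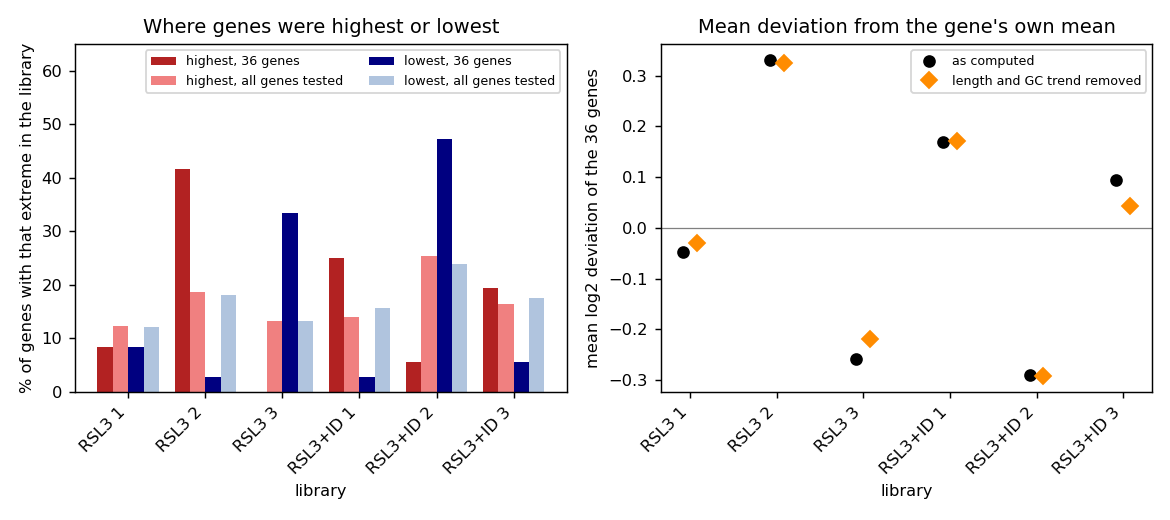
The left panel gives, for each library, the percentage of the 36 genes and of all genes tested that had their highest or lowest value there, with bars from 0. The right panel gives the mean log2 deviation of the 36 genes from their own means, before and after a trend with exon length and GC content was removed, which ranged from 0.33 in RSL3 library 2 to −0.29 in RSL3+ID library 2 either way.

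The direction of the fold change went with gene length, in these genes and in the whole table. Spearman's rho between log2 fold change and exon length was −0.52 across the 36 genes and −0.26 across all 14188 genes (Pearson's r with log2 length −0.44 and −0.22). These are descriptions across genes that were read from the same 6 libraries and are not independent. Among the 12 shortest genes, of 1286 to 3362 bp, 9 had a positive log2 fold change and the median was 0.33, while 62.1% of all genes in that length range were positive with a median of 0.12. Among the 12 longest, of 4760 to 12807 bp, 3 were positive and the median was −0.25, while 40.8% of all genes of that length were positive with a median of −0.09. The short genes were CDC25C, PTTG1, UBE2C, CCNB2, CCNA2, NUSAP1, AURKB, NUF2 and CCNB1, with positive estimates, and AURKA, CDC20 and CENPA, with negative ones. The long genes were CENPE, MKI67 and TOP2A, with positive estimates, and PLK1, FOXM1, ASPM, ANLN, KIF23, KIF11, CENPF, PRC1 and BUB1, with negative ones. CDK1, with 3931 bp, and BUB1B, with 4476 bp, belong to the 12 genes of middle length, where the median was −0.08 and 4 of 12 were positive, while 52.9% of all genes of that length were positive with a median of 0.02.

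When a trend with exon length and GC content was removed from each library, CDK1 kept a log2 fold change of 0.68 (adjusted p = 0.0266) and CDC25C one of 0.60 (adjusted p = 0.0417). PTTG1 went from 0.55 to 0.37 (adjusted p = 0.160) and UBE2C from 0.49 to 0.27 (adjusted p = 0.458), and BUB1B stayed at −0.76 (adjusted p = 0.124). The mean deviations of the libraries kept their signs, at −0.03, 0.33 and −0.22 in RSL3 libraries 1 to 3 and 0.17, −0.29 and 0.04 in RSL3+ID libraries 1 to 3, where that of RSL3+ID library 3 had been 0.09. In RSL3 library 2 the deviation of the 36 genes went with exon length (Pearson's r = 0.63) and against GC content (r = −0.60), where the values over all genes were 0.23 and −0.22. In RSL3+ID library 3 it went against exon length (r = −0.59, and −0.15 over all genes). It did so less in RSL3+ID library 2 (r = −0.31, and −0.16 over all genes), and r lay between −0.26 and 0.18 in the other libraries.

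**Figure D5:**
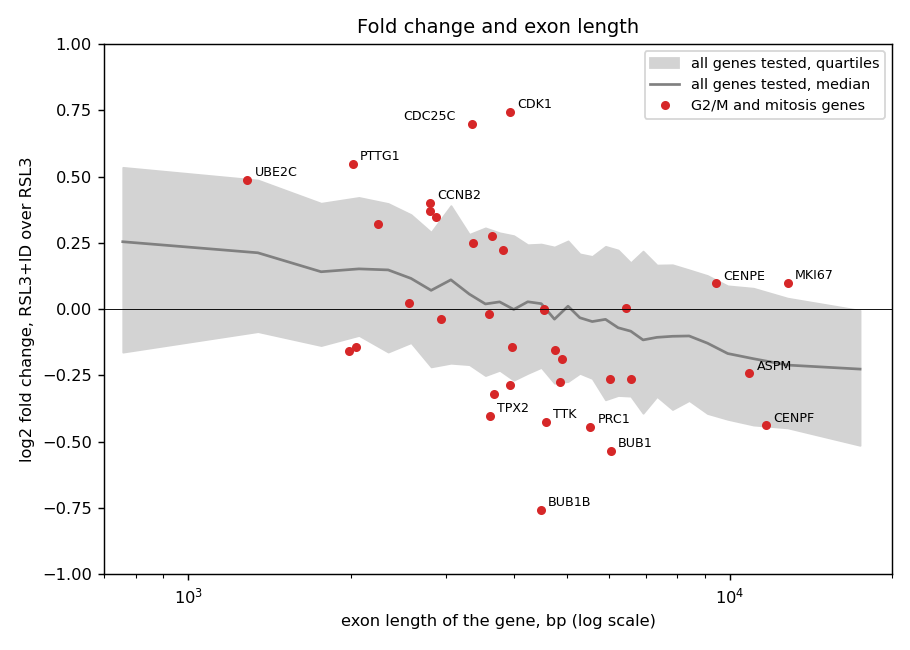
The log2 fold change, RSL3+ID over RSL3, is plotted against exon length in bp on a log axis for the 36 genes (points) and for all genes tested (line for the median and band for the quartiles in bins of length). The median over all genes falls from above 0 at short genes to below 0 at long ones, and CDK1, CDC25C and BUB1B are among the genes outside the band.

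Of a wider list of 121 G2/M and mitosis genes, 120 were tested and 2 passed, both higher, a share close to the 1.91% of all genes that were called. UBE2S, the ubiquitin-conjugating enzyme that extends the chains begun by UBE2C, rose 1.68-fold, from 15945 ± 460 to 26879 ± 1463 normalised counts (SD, n = 3 each; adjusted p = 0.0188). PIMREG, a mitotic phosphoprotein known as CATS, rose 1.55-fold, from 2294 ± 220 to 3556 ± 237 (adjusted p = 0.0443). In both genes every RSL3+ID library was above every RSL3 library. The median log2 fold change over the 120 genes was 0.03, with 64 positive and 56 negative. It was 0.16 for 32 further kinetochore genes and 0.08 for 18 genes of the anaphase-promoting complex and its partners. It was 0.04 for 24 entry regulators, −0.15 for 27 spindle and cytokinesis genes, and −0.21 for 19 condensin and cohesin genes. WEE1, the kinase opposed by CDC25C and singled out here after its values were seen, had 820 to 1077 normalised counts in RSL3 and 520 to 686 in RSL3+ID. Its groups did not overlap, but it did not pass (log2 fold change −0.68, standard error 0.17, adjusted p = 0.0686).

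The authors' deposited table of changed genes lists 6.3% of the genes tested here, 3.27% as higher, and 3 of the 36 mitotic genes are in it, all higher in RSL3+ID. In the authors' deposited table CDK1 has a log2 fold change of 0.75 (adjusted p = 0.00151), CDC25C of 0.70 (adjusted p = 0.000894) and PTTG1 of 0.54 (adjusted p = 0.0116). Of the wider list, the authors' deposited table holds UBE2S, CENPK, PIMREG, CENPW, CDCA5, ZWINT, ENSA and SKA1 as higher and WEE1 as lower (log2 fold change −0.68, adjusted p = 0.0130). It was made from these libraries, so its calls are not independent of those above.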

How the data were processed

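The expression table holds, per the file headers, symbols, gene identifiers and 6 library columns of log2 values, which the authors had variance-stabilised before they deposited them. The authors' deposited table of changed genes holds log2 fold changes, a base mean (a signal on the normalised count scale), a test statistic (a score, not used here) and p-values. GRCh38 and the tools DESeq2 1.30.0, StringTie 2.1.5, HISAT2 2.2.1 and Trimmomatic 0.39 appear, per the submitters' processing notes, without a role. The counter, strand setting, annotation and any filter were not given in the sources used here.

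The stabilisation was inverted from its shared lowest value, 6.04. This gave normalised counts and whole reads for 100% of values within 0.001, and base means within a relative 2.5e-14 of those deposited for 894 genes. Groups follow the treatment field, since every title begins with RSL3 and an undefined letter; columns were put in groups by name and are numbered as there. Differences of log2(normalised count + 1) were tested with limma 3.58.1 in R 4.3.3 (trend, robust; checked on simulated data), two-sided, over 14188 genes with a mean of at least 10. Exon lengths and GC content came from GENCODE on GRCh38. An exact permutation test of 3 against 3 cannot go below 0.1 and was not used. Depth was 15206183 to 18506637 reads, and counting floors cover counting error only. Alternatives were other scalings, pseudocounts, filters, voom, a length and GC trend, a block and leaving out each library.

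The members, roles and lists were chosen with earlier results of these data known. Every member is named. Values in all libraries are given for members past the threshold or in the deposited table, the 4 highest and 4 lowest fold changes, and the most counted member of each role; further singled-out values were chosen after they were seen.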

Additional observations from a re-analysis of the deposited data

How the results depend on the processing

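CDK1 and CDC25C were the members called with the deposited log2 values, a pseudocount of 5, no filter, total-read scaling, voom and the length and GC trend removed, and PTTG1 joined them with upper-quartile scaling (adjusted p = 0.0469). The split of all calls moved with scaling, from 153 higher of 271 to 90 of 307 with total reads and 242 of 328 with the upper quartile, with all-gene medians of −0.02, −0.11 and 0.05. Leaving out 1 library gave 0 to 7 members called higher, 0 to 1 lower and 0 to 1325 genes in all. The 5 omissions other than that of RSL3+ID library 2 each gave 0 members and 0 to 4 genes, while 1777 to 2594 genes had an unadjusted p under 0.05. Without RSL3+ID library 2, where 9.34% of genes passed (270 of the 271 among them), CDK1, CDC25C, PTTG1, UBE2C, NUSAP1, CCNA2 and CCNB2 were higher and BUB1B was lower; the cause was not tested. The median of the members ran from −0.23 to 0.14. The replicate block gave 0 members and 0 genes (1993 at an unadjusted p under 0.05), with a limma adjusted p of 0.176 for CDK1 and CDC25C. Deviations of same-numbered libraries correlated at −0.00, −0.25 and −0.18. With so few libraries this cannot tell whether same-numbered libraries were made together, and the labels do not say so. If they were, the block would be the fitting model, and no call would remain.

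The sign held in all 6 omissions for 19 members, 11 positive and 8 negative. It turned for 17, whose log2 fold changes ran from −0.52 to 0.086 for ANLN, −0.53 to 0.16 for ASPM, −0.19 to 0.22 for AURKA, −0.12 to 0.22 for CCNB1, −0.30 to 0.15 for CDC20, −0.17 to 0.43 for CENPE, −0.19 to 0.36 for CKAP2, −0.64 to 0.085 for DLGAP5, −0.57 to 0.11 for HMMR and −0.50 to 0.014 for KIF11. They ran from −0.40 to 0.31 for KIF20A, −0.50 to 0.02 for KIF23, −0.16 to 0.11 for KIF4A, −0.20 to 0.42 for MKI67, −0.30 to 0.30 for NDC80, −0.34 to 0.12 for PLK1 and −0.36 to 0.44 for TOP2A. Of other settings, total-read scaling turned CCNB1 to −0.067, CKAP2 to −0.090 and TOP2A to −0.086. Upper-quartile scaling turned AURKA to 0.030, NDC80 to 0.048 and KIF4A to 0.063. The length and GC trend turned CCNB1 to −0.078 and CKAP2 to −0.034, and the deposited log2 values turned CKAP2 to −0.010 and TOP2A to −0.009.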
